A study of Mus musculus with 23 samples.

Results

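Doxycycline induction of SETa was examined in KH2 mouse embryonic stem cells (ESCs), chosen by cell line and treatment as all KH2 libraries of the series, 4 of its 23 libraries. KH2 is an ESC line made for doxycycline-controlled transgenes, and all 4 libraries carry an HA-tagged SETa construct (genotype SETa-HA) behind a doxycycline-inducible promoter. The Dox group was treated with 1 μg/mL doxycycline (Dox) for 24 h (2 libraries) and the group without Dox was left untreated (2 libraries). The cells were grown on mouse embryonic fibroblast (MEF) feeders with serum and LIF. No KH2 line without the construct was treated with Dox among the libraries analysed here, so effects of SETa and of the drug cannot be told apart. No label says whether the construct is in 1 clone, or whether replicates were grown as separate cultures; the p-values cover the spread among these libraries alone, which may be technical. The rest of the series used here is R1 ESCs labelled SET-/- (KO lines KO1 and KO2) or wild type (WT), in set 1 (4 KO and 2 WT samples) and set 2 (4 KO and 2 WT samples after libraries of 1 title code were summed). Set 2 also holds libraries treated with retinoic acid for 4 d (1 WT and 2 KO1). These enter only the fit with all libraries of the series and the counts given over all other libraries.

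SET, also called TAF-I or I2PP2A, is an acidic histone chaperone and an inhibitor of protein phosphatase 2A (PP2A). It is part of a complex that masks histone tails from acetylation, and it binds p53. The SETa and SETb isoforms differ at their amino terminus. In KH2 cells, as background to the line, the reverse tetracycline transactivator is made from the Rosa26 locus and the regulated transgene sits beside Col1a1. The series title and design raise SET, p53 and β-catenin in ESC identity and differentiation.

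RNA was read as 3′ tags (QuantSeq), so 1 count is 1 read near a transcript's end and levels are given as CPM, each count scaled to its library's total and a TMM factor. Total counts were 6472695 and 5287234 with Dox, against 4910275 and 4848478 without. Log2 levels of the 12723 tested genes correlated at 0.9864 between the Dox libraries and 0.9855 between those without Dox, against 0.9801 to 0.9825 across groups. Dox replicate 2 stood apart in 2 ways. It had 3634 genes with exactly 1 count, against 2394 in Dox replicate 1 and 2501 and 2534 without Dox. It also had 11917 counts of Gm10800 (chromosome 2, 98666547 to 98667301), where Dox replicate 1 had 153, the libraries without Dox had 84 and 57, and the other 19 libraries had 8 to 104. Neither Gm10800 nor its neighbour Gm10801 was called. What sets this library apart was not tested, and the number of named genes that lose their call without it is given below.

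Set itself was not called. Set (ENSMUSG00000054766, GRCm38 chromosome 2, 30057378 to 30072577) stood at 1194 and 1064 CPM with Dox, against 962 and 903 CPM without Dox. Both Dox libraries lay above both libraries without Dox, by 0.28 on the log2 scale (SE 0.10, edgeR adjusted p = 0.175). A 3′ tag at the endogenous gene does not check the transgene: the sources used here do not give the construct's 3′ end, and whether its transcript added counts to Set or to any other annotated gene was not tested. The SETa induction therefore rests on the labels. Gt(ROSA)26Sor, the Rosa26 transcript, was at 11.02 and 11.7 CPM with Dox and at 10.5 and 12.4 CPM without Dox, and was not called (adjusted p = 0.988).

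Dox was followed by a response of modest size, evenly split in direction. At an adjusted p of 0.05, 229 of 12723 genes were called (1.80%; edgeR quasi-likelihood test, Benjamini-Hochberg), 114 higher (0.896%) and 115 lower (0.904%). The median size among called genes was 0.66 on the log2 scale (1.58-fold), and the median over all tested genes was 0.004. More than 2-fold changes numbered 21 upward and 16 downward. In all 229 both Dox libraries lay on the same side of both libraries without Dox, which a call on 2 against 2 libraries largely presupposes. The leading principal component held 45.6% of the variance and placed the Dox libraries at 19.32 and 21.11, against -16.15 and -24.28 without Dox. The number of calls varied with the library left out. With 1 library of a group left out, the lone library left in that group is assumed to vary like the other group. The number of calls then also depends on which group supplies the spread, so it does not single out the libraries without Dox. Of the 70 named genes called, 32 lost the call without Dox replicate 1, 22 without Dox replicate 2, 49 without replicate 1 and 65 without replicate 2 of the group without Dox. Hbb-bs, Ccn2, Cd9, Snhg6 and Eif2s3x were called with every library left out in turn. Fitted with all libraries of the series, 33 genes were called, 17 of them higher.

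**Figure D1:**
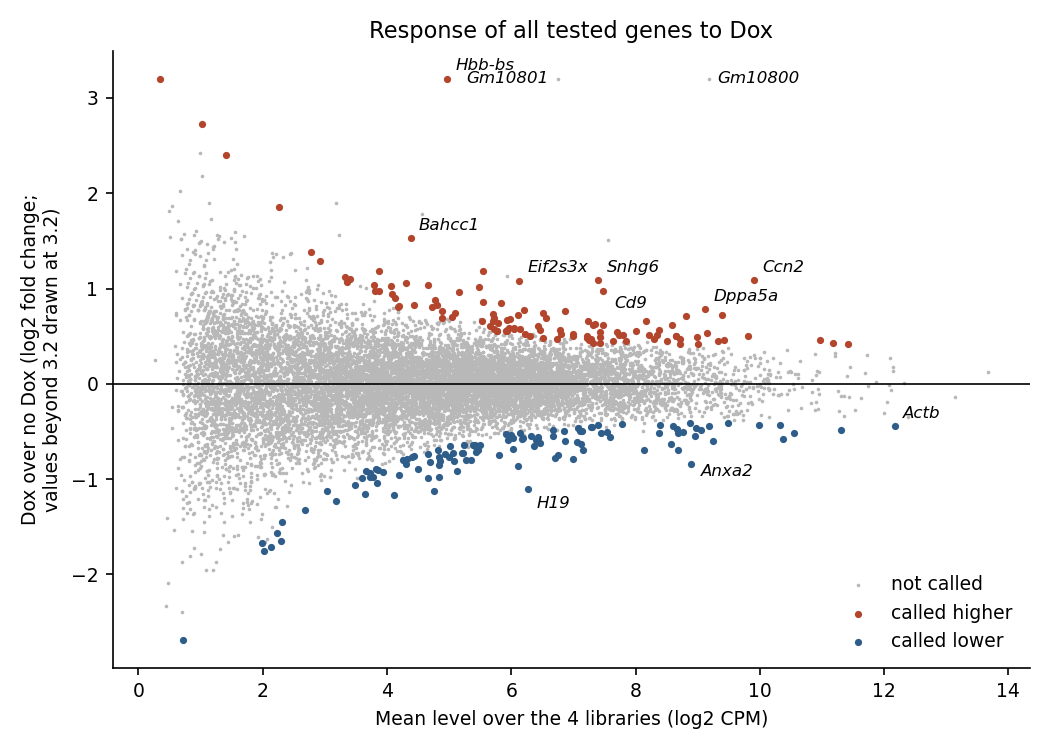
Each point is 1 of 12723 tested genes, with its mean level over the 4 KH2 libraries (log2 CPM) across and its log2 fold change of Dox over no Dox up; values beyond 3.2 are drawn at 3.2. Called genes lie on both sides in like number (114 higher, 115 lower), and Gm10800 and Gm10801 are far up but grey, their counts being high in Dox replicate 2 alone.

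Hbb-bs, an adult β-globin gene, had the smallest adjusted p with Dox. Hbb-bs (ENSMUSG00000052305, chromosome 7, 103826534 to 103828096) had 434 and 304 counts with Dox, against 0 and 0 without Dox. In CPM these were 66.4 and 58.2 with Dox, at least 204-fold above the floor of 3 counts over both libraries without Dox (0.307 CPM). The fitted test passed (edgeR adjusted p = 5.86e-14), and its highest adjusted p with any library left out was 8.35e-07. Among the other 19 libraries of the series no more than 1 count was seen in any. The other 9 globin genes together had 6 counts in the Dox libraries and 1 in those without Dox. Few red cell genes were abundant enough to test. Of 5 tested members of a 24-gene globin and erythroid list, Hbb-bs rose and Tfrc, the transferrin receptor that all dividing cells use, fell (log2 -0.42, adjusted p = 0.0437). Gata1 and Klf1, the transcription factors that define erythroid cells, had 1 and 6, and 4 and 0 counts with Dox, against 2 and 4, and 3 and 11 counts without Dox. Alas2, the erythroid heme synthesis enzyme, was at 0 in all 4 libraries. Hbb-bs and Hbb-bt are near-identical, so tags that map equally to both are not counted. Whether the transcript of the SETa-HA construct, whose 3′ end is unknown here, adds counts to Hbb-bs was not tested. Tfrc lost its call with each library left out (adjusted p = 0.0903 to 0.366).

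**Figure D2:**
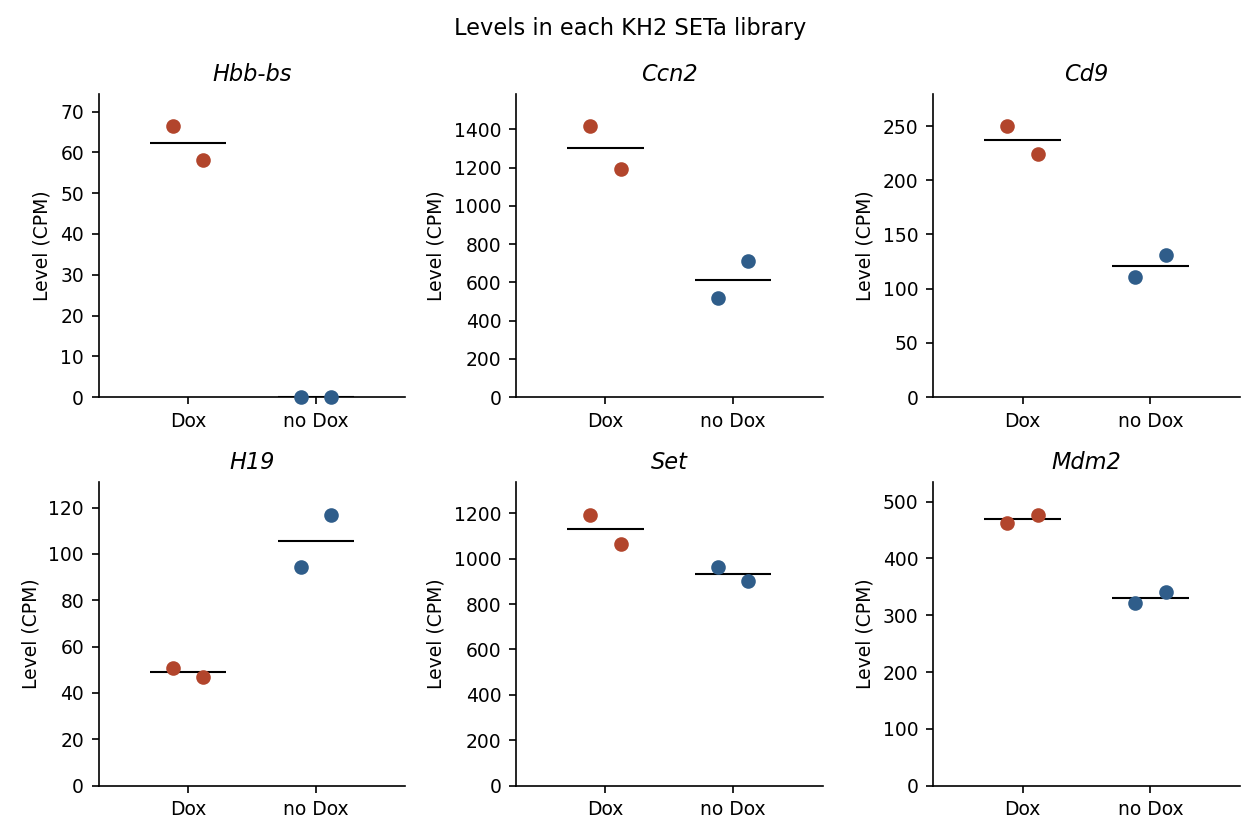
Levels (CPM, linear axes from 0) of 6 genes in each KH2 library; points are libraries, Dox left and no Dox right, and bars are group means. Hbb-bs is at 66.4 and 58.2 with Dox and at 0 without, Ccn2, Cd9 and Mdm2 are higher with Dox, H19 is lower, and Set is not called.

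Ccn2 (CTGF), a secreted matricellular protein and a target of the YAP and TEAD transcription factors, roughly doubled. Ccn2 (ENSMUSG00000019997, chromosome 10, 24595442 to 24598683) had 1418 and 1192 CPM with Dox, against 517 and 711.5 CPM without Dox. The groups did not overlap, with a log2 fold change of 1.09 (SE 0.12, 2.13-fold, edgeR adjusted p = 1.88e-05). The call was lost in the fit with all libraries of the series (adjusted p = 0.392). Ccn1 (CYR61), a matricellular relative of Ccn2, had 530.5 and 451 CPM with Dox and 350.5 and 359 CPM without Dox (log2 0.47, SE 0.11, adjusted p = 0.0261). Amotl2, an angiomotin family scaffold that binds YAP, had 184 and 166 CPM with Dox and 127 and 121 CPM without Dox (log2 0.50, adjusted p = 0.0260). Ankrd1, a nuclear ankyrin repeat cofactor and another common YAP readout, went the other way. Its levels were 30.8 and 28.2 CPM with Dox and 49.2 and 42.7 CPM without Dox (log2 -0.64, SE 0.17, adjusted p = 0.0437). These 4 were the called members among 25 tested of a CCN and YAP target list, 3 higher and 1 lower, where 0.896% of all genes rose and 0.904% fell, with a list median of 0.05 beside 0.004 over all genes. Yap1 itself (log2 0.05), its relative Wwtr1 (log2 -0.13) and the DNA-binding partner Tead1 (log2 0.20) were not called. Without replicate 2 of the group without Dox, Ccn2 alone of these 4 was called (adjusted p = 0.00257, the other members up to 0.396). Ankrd1 lost its call with each library left out (adjusted p = 0.0668 to 0.261), and Ccn1 and Amotl2 also without Dox replicate 1 (adjusted p = 0.198 and 0.15) and without replicate 1 of the group without Dox (0.194 and 0.145).

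No promoter window was available for Ccn2, so its promoter was not checked. The promoter windows of the 3 other called members are shown because all carry the core letters of the TEAD motif, GGAATG on either strand (CATTCC on the other), in capitals. Each runs from 250 bases before to 50 bases after the RefSeq start site on GRCm38.p6, in the gene's direction. They lie at chr3:145649936-145650235 (minus strand) for Ccn1, chr9:102717554-102717853 (plus strand) for Amotl2 and chr19:36119795-36120094 (minus strand) for Ankrd1.
Ccn1: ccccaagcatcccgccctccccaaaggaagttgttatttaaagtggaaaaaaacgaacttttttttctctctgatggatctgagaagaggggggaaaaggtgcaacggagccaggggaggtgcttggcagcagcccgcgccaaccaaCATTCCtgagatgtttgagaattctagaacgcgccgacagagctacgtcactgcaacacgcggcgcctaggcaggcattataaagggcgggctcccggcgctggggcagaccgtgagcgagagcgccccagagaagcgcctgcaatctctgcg
Amotl2: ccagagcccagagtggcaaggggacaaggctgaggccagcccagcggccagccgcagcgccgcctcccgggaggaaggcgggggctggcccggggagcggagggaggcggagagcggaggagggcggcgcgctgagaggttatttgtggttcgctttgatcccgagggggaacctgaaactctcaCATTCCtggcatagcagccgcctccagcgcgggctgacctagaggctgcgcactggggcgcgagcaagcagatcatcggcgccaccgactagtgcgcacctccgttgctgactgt
Ankrd1: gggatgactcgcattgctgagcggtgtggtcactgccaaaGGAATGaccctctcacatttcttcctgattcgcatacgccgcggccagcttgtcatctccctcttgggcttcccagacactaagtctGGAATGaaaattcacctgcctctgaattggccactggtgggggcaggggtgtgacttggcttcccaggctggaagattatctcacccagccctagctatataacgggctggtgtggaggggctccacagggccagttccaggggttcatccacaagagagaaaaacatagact
The letters began at position -103 in Ccn1, at -65 in Amotl2 and at -210 and -123 in Ankrd1, counted from the start site. They occurred in 14.7% of the 32851 windows of the table. Of the 19 tested list members with a window, 11 held them in at least 1 window, and Lats2, Tead3 and Wwtr1 have more than 1 window. The 14.7% is a share of windows and the 11 of 19 a count of genes, so they are unlike measures. A match is a description of the letters only. The genes with the letters include Ccn1 and Amotl2, which rose, and Ankrd1, which fell.

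Cd9, a tetraspanin of the cell surface, rose almost as far as Ccn2. Cd9 (ENSMUSG00000030342, chromosome 6, 125460266 to 125494791) had 1633 and 1172 counts with Dox, against 548 and 632 counts without Dox. In CPM the groups were well apart (log2 0.98, SE 0.12, edgeR adjusted p = 4.84e-05), though the call was lost in the fit of all libraries (adjusted p = 0.0933). Of 24 tested tetraspanin and adhesion genes 2 rose and 1 fell, where 0.896% of all genes rose and 0.904% fell, with a median of 0.03. The other riser was Cdh3 (P-cadherin), at 45.9 and 35.8 CPM with Dox and 23.4 and 27.2 CPM without Dox (log2 0.70, adjusted p = 0.0422). Cdh2 (N-cadherin), a mesenchymal and neural adhesion molecule, fell, at 15.2 and 14.2 CPM with Dox and 25.2 and 25.7 CPM without Dox (log2 -0.79, adjusted p = 0.0392). With replicate 2 of the group without Dox left out, Cd9 held (adjusted p = 0.00913) and Cdh2 did not (adjusted p = 0.386), nor did Cdh3 (0.325). Cdh2 lost its call with each of the other libraries left out too (adjusted p = 0.0775 to 0.161), and Cdh3 with Dox replicate 1 (0.330) or replicate 1 of the group without Dox (0.255) left out.

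H19, the maternally expressed non-coding RNA of the Igf2 domain, was lower with Dox. H19 (ENSMUSG00000000031, chromosome 7, 142575529 to 142578143) had 51.0 and 46.9 CPM with Dox, against 94.2 and 117 CPM without Dox. Both Dox libraries were about alike and below both others (log2 -1.11, SE 0.14, edgeR adjusted p = 5.85e-05). Without replicate 2 of the group without Dox the change was -0.94 (adjusted p = 0.0606). Its oppositely imprinted neighbour Igf2 was near the detection limit in all 4 libraries, at 0.153 and 0.192 CPM with Dox and 0 in both without Dox. Of 25 tested imprinted genes, H19 and Phlda2 (a growth-limiting pleckstrin homology protein, log2 -0.60, adjusted p = 0.0135) fell and 0 rose, where 0.904% of all genes fell, with a median of -0.02. Phlda2 stood at 95.5 and 89.5 CPM with Dox and at 126 and 154.5 CPM without Dox, and its adjusted p was 0.409 without replicate 2 of that group.

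The other named risers had varied roles. Eif2s3x, the X-linked γ subunit of initiation factor eIF2, had 90.6 and 98.8 CPM with Dox, against 41.8 and 47.7 CPM without Dox (log2 1.08, SE 0.14, adjusted p = 5.87e-05). Snhg6, a small nucleolar RNA host transcript, had 261 and 199 CPM with Dox, against 93.2 and 124 CPM without Dox (log2 1.09, SE 0.14, adjusted p = 5.85e-05). In both genes every Dox library exceeded both others. In the fit with all libraries of the series, Snhg6 lost its call (edgeR adjusted p = 0.222) and Eif2s3x kept it (edgeR adjusted p = 0.00122). Bahcc1, a chromatin reader with a BAH domain, was at 29.2 and 32.8 CPM with Dox and at 13.1 and 8.30 CPM without Dox (log2 1.53, SE 0.22, adjusted p = 3.43e-04). Fbxl14, an F-box subunit of ubiquitin ligases, and Paip2b, a repressor of translation that binds poly(A)-binding protein, rose by 1.01 and 1.02 on the log2 scale (adjusted p = 6.55e-04 and 0.0210). Plaur, the urokinase receptor, rose by 1.29 (adjusted p = 0.0294), at 11.5 and 9.96 CPM with Dox and 3.63 and 5.18 CPM without Dox. Among the other named risers, Arhgef10l, Atxn7, Bloc1s3, Btf3, Sall3 and Zfp975 changed by 0.98 to 1.18. Without Dox replicate 2, Sall3 stood at 0.73 (adjusted p = 0.354) and Zfp975 at 1.11 (0.0523). Without Dox replicate 1, Atxn7, Bloc1s3, Btf3, Paip2b, Plaur and Zfp975 were not called (adjusted p = 0.0920 to 0.411), and without replicate 1 of the group without Dox neither these 6 nor Arhgef10l and Sall3 were (0.0772 to 0.256). Without replicate 2 of the group without Dox only Eif2s3x (adjusted p = 0.0141) and Snhg6 (0.00913) of these stayed called, and Bahcc1 had an adjusted p of 0.146. Btf3 has processed pseudogene copies and Eif2s3x a Y-linked counterpart, so their counts are uncertain.

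The other named lower genes also had varied roles. Cdc42ep2, a Cdc42 effector that organises actin, had 10.7 and 10.5 CPM with Dox, against 25.2 and 22.6 CPM without Dox (log2 -1.17, SE 0.22, edgeR adjusted p = 0.00438). Scg2 (secretogranin II), a secretory granule protein, had 8.88 and 6.51 CPM with Dox, against 17.15 and 17.6 CPM without Dox (log2 -1.16, adjusted p = 0.0136). Both were below the range of the libraries without Dox. Anxa2, an annexin that links membrane to actin, was picked out after its values were seen. It had 326 and 355 CPM with Dox, against 566 and 650 CPM without Dox (log2 -0.84, adjusted p = 6.93e-05). Chst1, Gbe1, Hist3h2ba, Lipt1, Oaz1, Pde1b, Rn7s6, Rps12-ps26, Serf1, Ubtd1 and Vaultrc5 make up the rest of the named lower genes, at -0.91 to -1.13. Without Dox replicate 2, Chst1, Lipt1, Pde1b, Scg2 and Serf1 were not called (adjusted p = 0.0523 to 0.149). Without Dox replicate 1, Chst1, Gbe1, Lipt1, Oaz1, Pde1b, Rps12-ps26, Serf1 and Vaultrc5 were not (0.0587 to 0.222), and without replicate 1 of the group without Dox only Anxa2, Oaz1 and Ubtd1 were called. When replicate 2 of the group without Dox was left out, Cdc42ep2 (adjusted p = 0.131), Scg2 (0.255), Anxa2 (0.0821) and the rest (0.146 to 0.542) were no longer called.

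Fibroblast genes had the most calls of the 30 lists. Of 31 tested feeder fibroblast markers, 10 fell and 0 rose, where 0.904% of all tested genes fell, and the list median was -0.48 beside 0.004. In 28 of the 31 the fold change was negative, where 50.5% of all tested genes had a positive one. In 21 both Dox libraries lay below both others, and the share of all tested genes that did so is not given here. Col1a1, the main fibrillar collagen chain, had 338 and 287 CPM with Dox, against 536 and 477 CPM without Dox (log2 -0.69, SE 0.11, edgeR adjusted p = 0.00122). Acta2, smooth muscle actin, had 55.7 and 41.8 CPM with Dox, against 82.7 and 96.0 CPM without Dox (log2 -0.87, adjusted p = 0.00237). Bgn (biglycan, log2 -0.61), Col1a2 (log2 -0.62), Col5a1 (log2 -0.66), Col6a1 (log2 -1.57), Fbln2 (fibulin 2, log2 -0.71), Lgals1 (galectin 1, log2 -0.51), S100a6 (log2 -0.44) and Sparc (log2 -0.48) were the other 8. All are matrix or mesenchymal genes.

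The summed level of the feeder list was 2813 and 2573 CPM with Dox, against 3672 and 3676 CPM without Dox. Without Col1a1, beside which the transgene sits, it was 2475 and 2285 CPM with Dox, against 3136 and 3199 CPM without Dox. In R1 WT cells, scaled separately, the sum was 1159 to 1412 CPM (set 1) and 1977 to 2166 CPM (set 2). The labels put MEF feeders in the culture, and in bulk RNA fewer cells of a type and less RNA per cell cannot be told apart. Fn1 (fibronectin, log2 -0.23, adjusted p = 0.277), which ESC cultures also express, Thy1 (log2 -0.28, adjusted p = 0.785) and Pdgfrb (log2 -0.14, adjusted p = 0.875) were not called, the last 2 at under 10 CPM. The number of members that fell was 11 without Dox replicate 1, 5 without Dox replicate 2, 1 without replicate 1 of the group without Dox and 0 without replicate 2, with medians between -0.38 and -0.70. The part of feeder cells in the other lower genes was not tested.

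Actin-related genes were also mostly lower in value, with 18 of 25 fold changes negative, where 50.5% of all tested genes had a positive one. Of 25 tested actin and serum response factor type genes, 2 fell and 0 rose, where 0.904% of all genes fell, with a median of -0.15. Acta2 was 1 of them, and is also on the feeder list. Actb, cytoplasmic β-actin, was the other, at 3919 and 3906 CPM with Dox and 4864 and 5795 CPM without Dox (log2 -0.44, edgeR adjusted p = 0.0208). Actb differed by more between the libraries without Dox than between those with Dox, and without replicate 2 its adjusted p was 0.461 and that of Acta2 0.222. The summed feeder level moved with these genes, and its part in them was not tested.

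**Figure D3:**
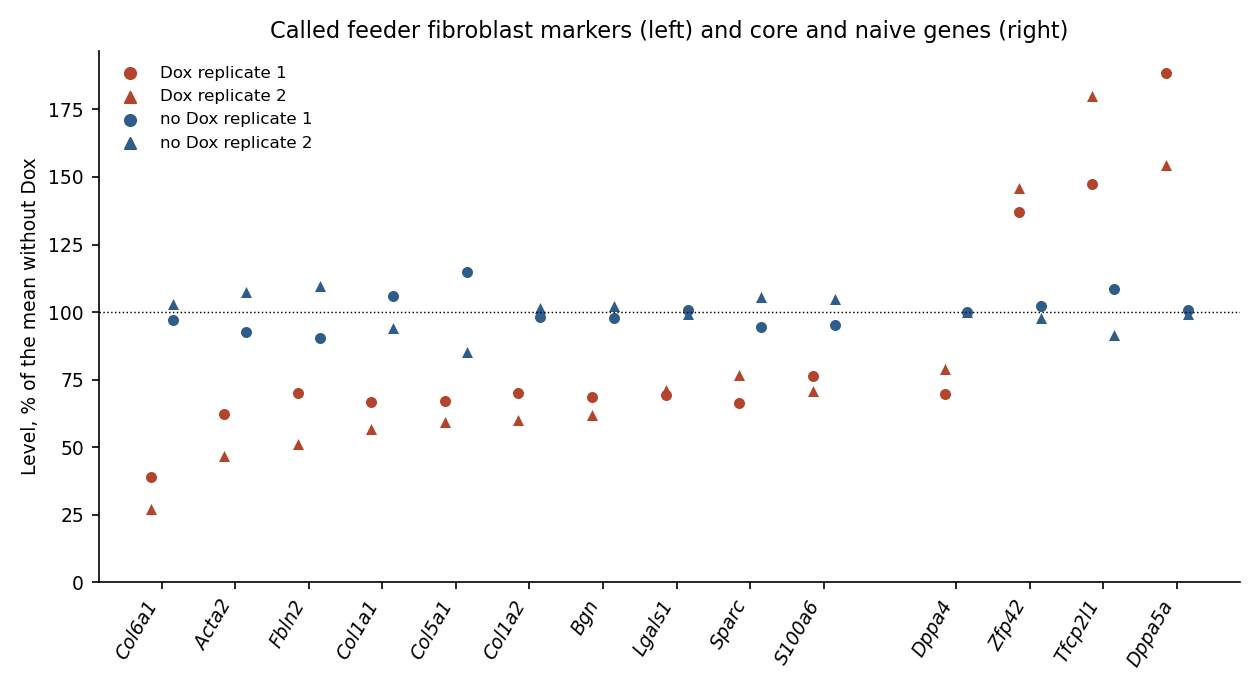
Level of each called feeder fibroblast marker (left, 10 genes) and core or naive gene (right, 4 genes) in every KH2 library, as a percentage of that gene's mean without Dox; circles are replicate 1 and triangles replicate 2. All Dox points of the 10 feeder markers and of Dppa4 lie below the points without Dox, and those of Zfp42, Tfcp2l1 and Dppa5a lie above.

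Core pluripotency genes were expressed in all 4 libraries, and 3 naive genes rose. Sox2 was at 483 and 462 CPM with Dox and 392 and 395 CPM without Dox, and Nanog at 173 and 167 CPM with Dox and 139 and 157 CPM without Dox; neither was called (adjusted p = 0.204 and 0.421). Klf4 (log2 0.04) and Esrrb (log2 0.26) were not called either. Pou5f1, which has many near-identical pseudogenes that can share its tags, was counted at only 4.79 to 10.4 CPM and is uncertain. Of 34 tested core and naive genes, 3 rose and 1 fell, where 0.896% of all genes rose and 0.904% fell. Of the 34 fold changes, 25 were positive (median 0.21), where 50.5% were positive over all tested genes. Tfcp2l1, a naive transcription factor downstream of LIF, had 504 and 615 CPM with Dox, against 370 and 312 CPM without Dox (log2 0.71, SE 0.12, edgeR adjusted p = 0.00139). Dppa5a (ESG1), an RNA-binding protein of naive ESCs, had 774 and 634 CPM with Dox, against 413 and 408 CPM without Dox (log2 0.78, SE 0.11, adjusted p = 2.39e-04). Zfp42 (REX1), a zinc finger protein used as a naive marker, had 89.1 and 94.8 CPM with Dox, against 66.4 and 63.7 CPM without Dox (log2 0.50, adjusted p = 0.0453). Dppa4, a chromatin protein of early embryos, fell, with 269 and 305 CPM with Dox and 386 and 386 CPM without Dox (log2 -0.43, adjusted p = 0.0389).

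In these 4 genes the groups did not overlap. None of the 4 was called without replicate 2 of the group without Dox (adjusted p = 0.109 to 0.409), while the list median was then 0.23. Zfp42 lost its call with each library left out (0.147 without Dox replicate 2), and Dppa4 also without Dox replicate 1 (0.218) or replicate 1 of the group without Dox (0.167). Of 22 tested formative and primed genes, 1 fell and 0 rose, where 0.904% of all genes fell (median 0.03). It was Pou3f1 (OCT6), a factor of the primed state, at 23.1 and 18.8 CPM with Dox and 33.3 and 38.6 CPM without Dox (log2 -0.77, adjusted p = 0.0301, and 0.427 without replicate 2 of the group without Dox). Dnmt3b (log2 -0.16), Dnmt3l (log2 -0.19) and Otx2 (log2 -0.13), markers of the same transition, were not called. Of 23 LIF and STAT3 genes 1 rose (Tfcp2l1) and 1 fell, the BMP target Id1 (log2 -0.73, adjusted p = 0.0394), with a median of -0.02. Pou3f1 and Id1 were not called without Dox replicate 2 (adjusted p = 0.138 and 0.136) or without replicate 1 of the group without Dox (0.112 and 0.183), nor Id1 with either of the remaining libraries left out (0.0566 and 0.386). The lower feeder sum stands beside these values, and its part in them was not tested.

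**Figure D4:**
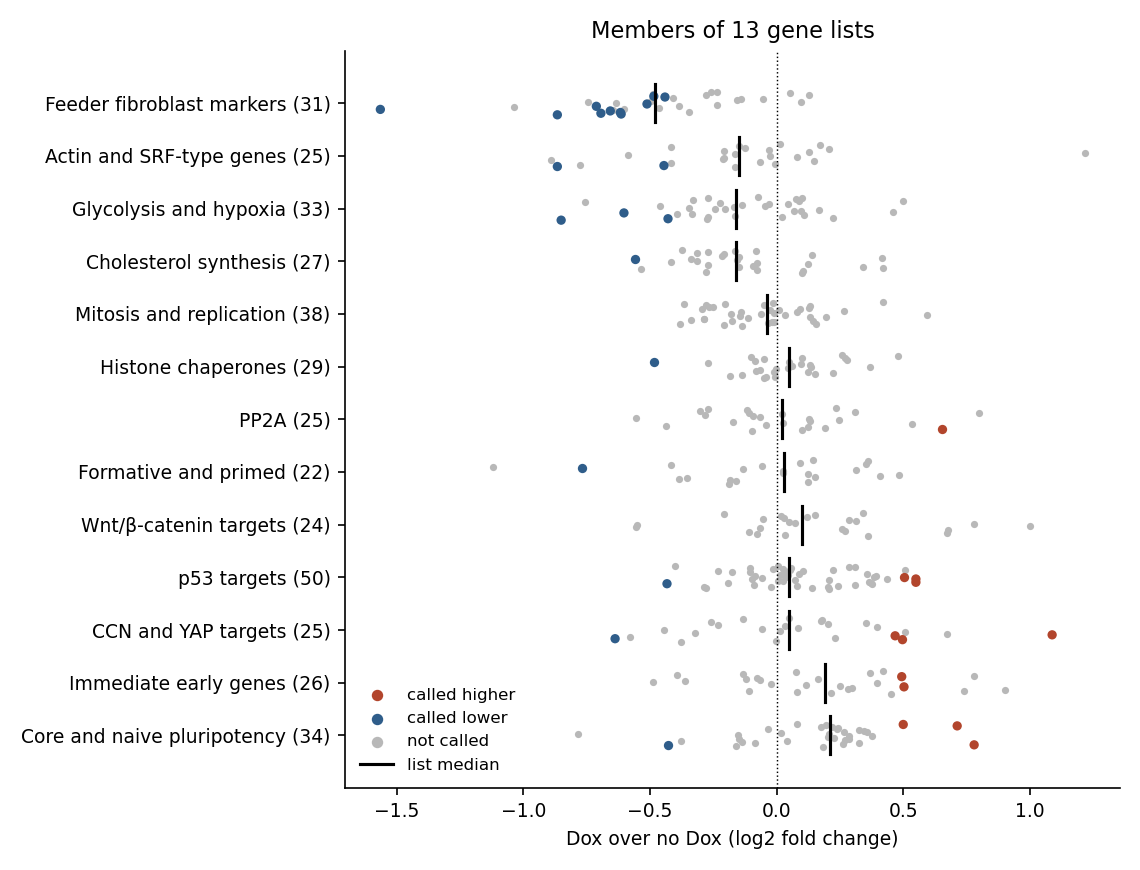
Log2 fold change of Dox over no Dox for the tested members of 13 gene lists (number tested in brackets); coloured points are called, grey points are not, and black bars are list medians. The feeder fibroblast median lies at -0.48 and the core and naive median at 0.21, and the other medians lie between -0.16 and 0.19.

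Among p53 targets 3 genes rose and 1 fell of 50 tested, where 0.896% of all genes rose and 0.904% fell. Mdm2, the ubiquitin ligase that p53 induces and that degrades it, had 462 and 477 CPM with Dox, against 321 and 341 CPM without Dox (log2 0.51, SE 0.11, edgeR adjusted p = 0.0129). The groups did not overlap, but the call did not hold without replicate 1 (adjusted p = 0.155) or replicate 2 (adjusted p = 0.243) of the group without Dox. Eda2r, a death receptor (log2 0.55, adjusted p = 0.0394), and Gdf15, a stress cytokine (log2 0.55, adjusted p = 0.0430), also rose. Ddit4 (REDD1), an mTOR inhibitor, fell, at 901 and 826 CPM with Dox and 1170 and 1163 CPM without Dox (log2 -0.43, adjusted p = 0.0261). The list median was 0.05 beside 0.004 over all genes. Gdf15 and Ddit4 were not called without Dox replicate 2 (adjusted p = 0.116 and 0.106), nor Eda2r and Gdf15 without Dox replicate 1 (0.194 and 0.109). Cdkn1a (p21), the best known p53 target, was at 159.5 and 135 CPM with Dox and 154 and 161 CPM without Dox, with overlapping groups (log2 -0.09, SE 0.12, adjusted p = 0.775). Trp53 itself was not called (log2 0.23, adjusted p = 0.437). The number of p53 targets higher was 3 with all libraries, 5 without Dox replicate 2, 1 without Dox replicate 1 and 0 without either library of the other group.

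Among Wnt and β-catenin targets, 0 of 24 tested genes were called (median 0.10), where 1.80% of all genes were, so that a list this short would hold few or no calls at the share over all genes. Axin2, the standard feedback target, was at 11.3 and 11.9 CPM with Dox, between the 15.3 and 7.26 CPM without Dox (log2 0.03, SE 0.28, adjusted p = 0.976). Lef1, a TCF family factor, was at 18.7 and 19.4 CPM with Dox and 26.03 and 29.9 CPM without Dox (log2 -0.55, adjusted p = 0.140), and Ctnnb1, β-catenin itself, was not called (log2 0.27, adjusted p = 0.578). With its SE of 0.28, a change of Axin2 of that size was not detectable.

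Of SET's own biochemical setting, histone chaperones and PP2A genes gave 1 call each, where 1.80% of all genes were called. Of 29 tested histone chaperones and acidic nuclear proteins, 1 fell and 0 rose (median 0.05). It was Ptma (prothymosin α), an acidic nuclear protein that binds histone H1, at 2126 and 2091 CPM with Dox and 2894 and 3014 CPM without Dox (log2 -0.49, SE 0.10, edgeR adjusted p = 0.00792). Its adjusted p was 0.257 without replicate 2 and 0.0845 without replicate 1 of the group without Dox. Anp32a, Anp32b and Anp32e, acidic nuclear proteins of the ANP32 family, had log2 fold changes of -0.05, -0.01 and -0.04, and the chaperone Nap1l1 of 0.05, with SEs of 0.10 to 0.11. Of 25 tested PP2A genes, Ensa, an inhibitor of PP2A in mitosis, rose (63.7 and 49.6 CPM with Dox, 31.3 and 41.1 CPM without Dox, log2 0.65, adjusted p = 0.0402), and the catalytic subunit Ppp2ca was not called (log2 -0.04). Ensa had an adjusted p of 0.222 without replicate 2 and 0.314 without replicate 1 of the group without Dox, and 0.327 without Dox replicate 1. Of 18 linker and variant histones and of 38 mitosis and replication genes, 0 were called, with medians of -0.03 and -0.04.

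Metabolic and stress lists gave 1 to 3 calls each, where 0.896% of all genes rose and 0.904% fell. Of 33 tested glycolysis and hypoxia genes 3 fell and 0 rose (median -0.16). Gpi1, a glycolytic isomerase, had 457 and 513 CPM with Dox and 714 and 760 CPM without Dox (log2 -0.60, edgeR adjusted p = 0.00288), Adm (adrenomedullin) fell by 0.85 and Aldoc (aldolase C) by 0.43 on the log2 scale. Of 27 cholesterol synthesis genes only Mvd, the mevalonate decarboxylase, was called (log2 -0.56, adjusted p = 0.0122; median -0.16). Of 32 amino acid and unfolded protein stress genes, Gdf15 and the arginine transporter Slc7a1 (log2 0.67, adjusted p = 0.0263) rose. Of 26 immediate early genes, Egr1 (472 and 472 CPM with Dox, 370 and 297 CPM without Dox, adjusted p = 0.0224) and Klf6 (576 and 616 CPM with Dox, 427 and 419 CPM without Dox, adjusted p = 0.0135) rose, both transcription factors induced by growth signals, with a list median of 0.19. Fos and Jun were not called. Leaving out replicate 2 of the group without Dox, no member of these lists was called (adjusted p = 0.221 to 0.468). Aldoc, Gdf15 and Slc7a1 were not called without Dox replicate 2 (0.0961, 0.116 and 0.0523), Adm, Aldoc and Gdf15 without Dox replicate 1 (0.109 to 0.216), and Adm, Aldoc, Gdf15 and Klf6 without replicate 1 of the group without Dox (0.116 to 0.175).

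Autophagy and lysosome genes were not on any list and are given as values chosen after they were seen. Ulk1, the kinase that starts autophagy, had 822.5 and 855 CPM with Dox, against 555 and 466 CPM without Dox (log2 0.72, edgeR adjusted p = 5.08e-04). Lamp1, a lysosomal membrane protein, had 206 and 178 CPM with Dox, against 129 and 121 CPM without Dox (log2 0.62, adjusted p = 0.00575). Psap (prosaposin), a lysosomal activator protein, had 1306 and 1029 counts with Dox, against 672 and 583 counts without Dox (log2 0.63, adjusted p = 0.00407). In CPM the groups do not overlap for any of the 3, and none was called without replicate 2 of the group without Dox (adjusted p = 0.196, 0.257 and 0.247), nor Lamp1 without replicate 1 (0.0871).

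In the translation and respiration lists changes went both ways, against 1.80% called over all genes. Of 62 tested cytoplasmic ribosomal protein genes Rpl15, Rpl23 and Rps19 rose and Rpl37 fell (median 0.02). Rps19 had 2075 and 2560 CPM with Dox and 1637 and 1741 CPM without Dox (log2 0.46, edgeR adjusted p = 0.0255), whereas its processed pseudogene Rps19-ps4 had 44.7 and 38.5 CPM with Dox and 73.7 and 66.0 CPM without Dox (log2 -0.74, adjusted p = 0.00801). Tags of a gene and its pseudogene can be exchanged in counting, so both are uncertain. Of 600 tested processed pseudogenes 1 rose and 20 fell (median -0.20), while of 11396 protein-coding genes 106 rose and 87 fell. Processed pseudogenes took 1.34% and 1.40% of counts with Dox and 1.6% and 1.58% without Dox. The pseudogene median was -0.15 to -0.27 with each library left out, and 0 were called lower without replicate 2 of the group without Dox. Of 75 nuclear genes of oxidative phosphorylation, Atp5j, Ndufb3 and Uqcrc2 rose (median -0.08), and of 63 mitochondrial translation genes Mrpl30 fell (log2 -0.59, adjusted p = 0.0255). None of these called members of the ribosomal, respiration and mitochondrial lists was called without replicate 2 of the group without Dox (adjusted p = 0.246 to 0.561). Without Dox replicate 2, Rps19 stood at 0.30 (adjusted p = 0.210), Rpl23 at 0.35 (0.203), Ndufb3 at 0.36 (0.160) and Atp5j at 0.41 (0.174). Rpl15, Rpl37 and Uqcrc2 lost their call without Dox replicate 1 (0.268, 0.0698 and 0.0945). Without replicate 1 of the group without Dox, only Mrpl30 and Uqcrc2 of the called list members remained called, and Rps19-ps4 had an adjusted p of 0.118 without it and 0.146 without replicate 2.

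Lists of other cell types held 0 or 1 call each, where 1.80% of all genes were called, so lists this short would hold few or no calls at that share. Of 19 tested primitive and visceral endoderm genes, 1 fell, which was Sparc, also a feeder marker (median 0.01). Of 13 trophectoderm genes, Phlda2 fell (median -0.05). In the lists for primitive streak, mesoderm and definitive endoderm (11 tested), neuroectoderm (19) and germline (13), 0 genes were called. Of 15 interferon response genes, H2-K1, a classical MHC class I chain, fell (28.3 and 27.97 CPM with Dox, 45.4 and 47.9 CPM without Dox, log2 -0.73, edgeR adjusted p = 0.0224), and its adjusted p was 0.333 without replicate 2 and 0.112 without replicate 1 of the group without Dox. Sparc (0.421) and Phlda2 (0.409) were not called without that replicate 2 either. The interferon list had a median of -0.22, with 11 of its 15 fold changes negative, where 50.5% of all tested genes had a positive one. The 2-cell-like list had 1 tested member and 13 with 0 counts in all KH2 libraries.

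The opposite manipulation, loss of SET, was measured in R1 cells and shares no library with the Dox comparison. Set was at 19.1 to 28.1 CPM in set 1 KO samples, against 1069 to 1096 CPM in WT (log2 -5.50, edgeR adjusted p = 5.34e-13). In set 2 it was at 264 to 543 CPM in KO, against 1153 to 1332 CPM in WT (log2 -1.6, SE 0.12, adjusted p = 9.43e-08). KO against WT called 1345 of 9764 genes in set 1 (13.8%; 7.71% higher and 6.06% lower) and 1252 of 12681 in set 2 (9.87%; 5.84% higher and 4.03% lower). The counts turned on single samples: 751 without WT sample 1a in set 1, and 805 without KO1 sample 2c, 641 without WT sample 2a and 315 without WT sample 2b in set 2. Summed Y-linked genes were at 21.1 to 145 CPM in KO against 1.83 to 1.85 CPM in WT in set 1, and at 13.8 to 59.0 CPM in KO against 100.1 to 108 CPM in WT in set 2. KO and WT samples thus differed in Y-linked levels, in opposite directions in the 2 sets, and the part of this in the KO results was not tested. Cell line and library set differ between the Dox and KO comparisons and cannot be told apart from the manipulation.

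The genes called with Dox that were also called in KO went both ways. In set 1, 185 of the Dox genes were tested and 48 were called (25.9%, 3.71% of the KO calls), where 13.5% of all genes tested in both were called. Of the 78 that fell with Dox, 22 were higher and 4 lower in KO, and of the 107 that rose, 8 were higher and 14 lower in KO. Over all genes tested in both, 7.38% were higher and 6.1% lower in KO. In set 2, 198 were tested and 48 called (24.2%, 4.22% of the KO calls), against 9.74% of all genes. There, of the 88 that fell with Dox, 13 were higher and 10 lower in KO, and of the 110 that rose, 19 were higher and 6 lower. Over all genes tested in both, 5.51% were higher and 4.23% lower in KO. The fold changes with Dox and in KO, over all genes tested in both, had a Pearson correlation of -0.121 in set 1 and 0.0326 in set 2. They were thus weakly related, with opposite signs in the 2 sets.

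Called in all 3 comparisons were 23 genes, 15 with KO opposite to Dox in both sets and 8 in the same direction. The share of all genes called in both KO sets in each direction is not given here, so this split is a description only. In set 2 alone, genes that rose with Dox were more often higher in KO (19) than lower (6). Those that fell with Dox were higher in 13 cases and lower in 10. H19 was lower with Dox (log2 -1.11) and higher in KO. In set 1 it had 29 to 78 counts in KO samples against 1 count in each WT sample, under the floor of 3 counts, a ratio of 41.3 per total count (95% exact interval 11.3 to 344, counting error only). In set 2 it was higher by 1.57, where its levels were 17.0 to 27.8 CPM in KO against 7.04 to 7.51 CPM in WT. Zfp42 rose with Dox (0.50) and fell in KO (-1.22 and -0.67), and Tfcp2l1 likewise (0.71 with Dox, -0.97 and -0.59 in KO). The other opposite genes were Trap1a and Arid5b, higher with Dox, and Acta2, Chst1, Col1a1, Col1a2, Col5a1, Ddit4, Id1, Lgals1, Pou3f1 and Sparc, lower with Dox. Of the 11 opposite genes that fell with Dox, 6 are feeder markers, and the summed feeder list was 3030 to 3519 CPM in KO against 1159 to 1412 CPM in WT in set 1, and 2692 to 3160 CPM in KO against 1977 to 2166 CPM in WT in set 2. These 6 are themselves terms of the feeder sum, so its moving with them in all 3 comparisons is partly built in. Sparc, also on the endoderm list, alone averaged 1334 CPM in KO and 422 CPM in WT in set 1. The part of feeder cells in the 11 genes was not tested.

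Genes moving the same way in Dox and KO included Ccn2 and Mdm2. Ccn2 was at 120 to 371 CPM in set 1 KO against 65.8 to 75.0 CPM in WT (log2 1.90, edgeR adjusted p = 0.0373), and at 478 to 928 CPM in set 2 KO against 226 to 340 CPM in WT (log2 1.14, adjusted p = 0.00679). Mdm2 was higher in KO by 0.89 and 0.83 on the log2 scale. Amotl2 (angiomotin-like 2), Agpat4, the atypical cadherin Fat1 and Pid1 rose in all 3 comparisons, and Rdm1 and Upp1 (uridine phosphorylase) fell in all 3. Cd9 was called higher in set 2 KO (log2 0.52, adjusted p = 0.0183) and not in set 1 (log2 -0.20, adjusted p = 0.728), and its difference between Dox and KO effects was 0.82 (SE 0.27, adjusted p = 0.0643), 1.20 with set 1 alone (0.0194) and 0.45 with set 2 alone (0.555).

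**Figure D5:**
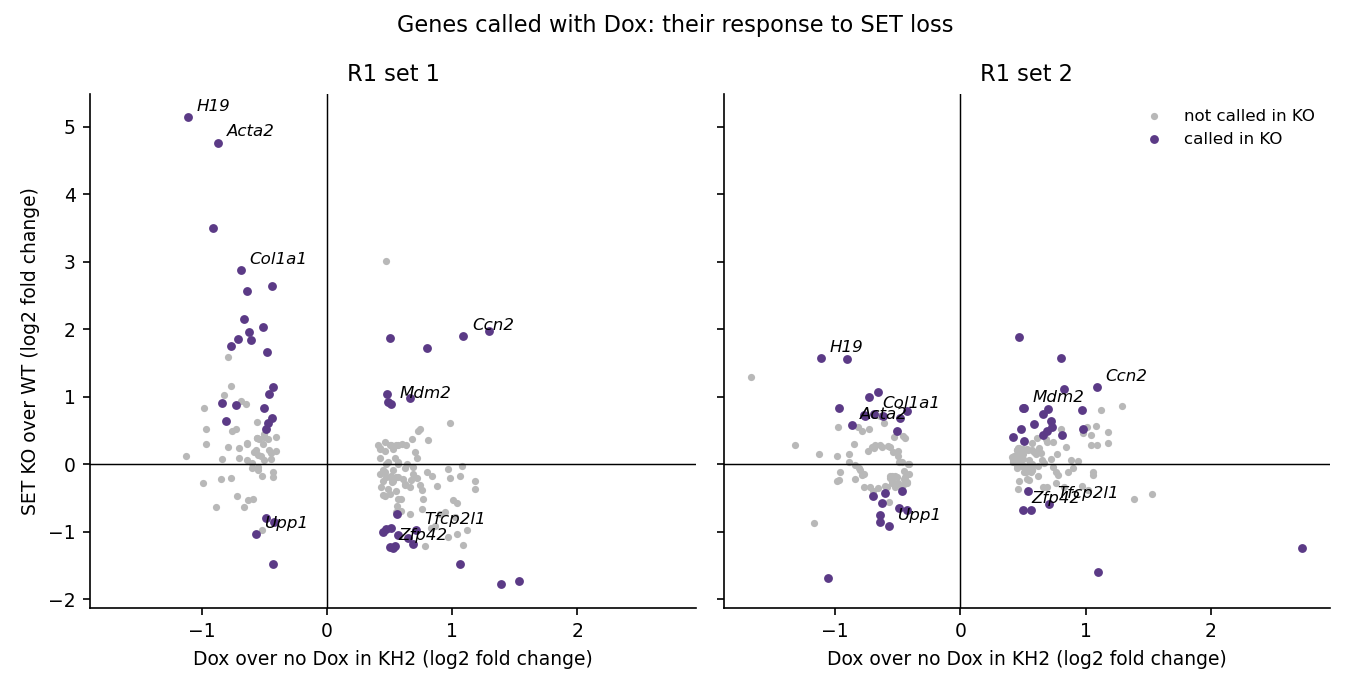
Genes called with Dox and tested in R1: log2 fold change of Dox over no Dox in KH2 (across) against SET KO over WT (up) in set 1 (left) and set 2 (right); purple points are also called in KO, and Hbb-bs is not plotted since it was not tested in R1. H19 lies upper left (lower with Dox, higher in KO) in both sets, and Ccn2 and Mdm2 lie upper right.

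The difference between the Dox effect and the KO effect was tested gene by gene in 1 fit (1263 of 13565 genes passed, 9.31%; 4.43% with a difference above 0 and 4.88% below). Of 228 Dox genes tested, 98 differed, 49 of them higher with Dox with a difference above 0 and 47 lower with Dox with a difference below 0. These genes were chosen by their Dox effect, which is itself part of the difference. Their share and directions are therefore largely set by that choice. H19, Tfcp2l1 and Zfp42 had likewise already been called with opposite directions in Dox and KO. H19 differed by -2.69 with the KO effect of set 2 alone (SE 0.30, edgeR adjusted p = 5.49e-08), and by -4.52 with both sets (adjusted p = 3.76e-12), a value that includes the 1 count per WT sample of set 1. With both sets, Tfcp2l1 differed by 1.49 (SE 0.18, adjusted p = 1.89e-07) and Zfp42 by 1.45 (SE 0.20, adjusted p = 1.43e-06). Cdkn1a, not called with Dox but higher in KO by 2.10 and 1.49, differed by -1.88 (SE 0.20, adjusted p = 5.43e-09). Klf4, not called with Dox and lower in KO by 1.57 and 1.15, differed by 1.40 (SE 0.18, adjusted p = 5.48e-07). For Ccn2 (-0.43, SE 0.50, adjusted p = 0.688), Mdm2 (-0.35, SE 0.18, adjusted p = 0.226) and Fat1 (-0.20, SE 0.21, adjusted p = 0.620) the difference did not pass, which does not show that the responses are equal. With the KO effect of set 2 alone 342 genes differed, and 630 to 767 with any 1 KH2 library left out (767 and 756 without Dox replicate 1 and 2, 761 and 630 without replicate 1 and 2 of the group without Dox).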

How the data were processed

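The deposited files hold raw integer counts per gene, which per the file headers the authors made with featureCounts 1.6.0 and Ensembl release 97 (GRCm38). No strand option appears there, and by default reads mapping to several places or genes are not counted. Alignment used STAR 2.5.4b, and Subread 2.0.0 is also named, per the submitters' processing notes. The files held 55573 genes; mitochondrial genes had 0 counts.

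From the counts, edgeR 4.0.16 quasi-likelihood F tests (R 4.3.3; TMM, filterByExpr, robust, group means) were run with Benjamini-Hochberg adjustment and a threshold of 0.05. The 4 KH2 libraries were fitted alone. R1 sets were fitted separately, with CPM scaled within each fit, and the Dox minus KO difference in 1 fit of all groups without retinoic acid. Libraries of 1 title code were summed. The scripts were tested on simulated data. Members, the 30 gene lists and the naming rule were chosen with earlier results of these data known. The rule names key genes, the 14 highest and 14 lowest called genes of at least 10 CPM with a gene name, and up to 4 called members per list. Alternatives were DESeq2 1.42.0 size factors and Wald test, no low-count filter, a replicate block, all libraries in 1 fit, 1 KO set alone and each library left out; protein-coding genes alone, the alternatives for KO and the left-out libraries for the difference were added after seeing the data. Counting limits, such as the floor of 3 counts, cover counting error only.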

Additional observations from a re-analysis of the deposited data

How the results depend on the processing

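The number of genes called with Dox was 229, and 214 with DESeq2 size factors, 159 with the DESeq2 Wald test, 290 with no low-count filter and 206 with protein-coding genes only. It was 33 with all samples of the series in 1 fit, and 6 to 234 with 1 library left out, the lone library of a group then being assumed to vary like the other group. Without Dox replicate 2, 63.2% of calls were higher. The replicate numbers of the titles share only a number (the deviations of same-numbered libraries correlated at 0.0355), and with the replicate number as a block 724 genes were called, among them Set (log2 0.27, adjusted p = 0.0366). Over 817 comparisons of 86 named genes with the alternatives, 0 calls changed direction and 234 were lost. The fold change of a gene not called could change sign, as for Axin2 (0.03, and -0.4 without replicate 2 of the group without Dox). For KO against WT 751 to 1716 genes were called in set 1 and 315 to 1824 in set 2 with 1 sample left out, with 805 (KO1 sample 2c) and 641 (WT sample 2a) among the set 2 values. The difference between Dox and KO effects gave 1263 genes, 342 with the KO effect of set 2 alone, 1451 with set 1 alone and 630 to 767 with 1 KH2 library left out. At the depth of these libraries, 3 counts correspond to 0.463 to 0.619 CPM.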

Other observations

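A few low genes outside the lists changed by large factors with Dox and were chosen after their values were seen. Rgs20, a regulator of G protein signalling, had 19 and 22 counts with Dox, against 3 and 2 without Dox. Dcdc2a, a doublecortin domain protein, had 21 and 30 counts with Dox, against 4 and 4 without Dox. Xist, the X-inactivation RNA, had 59 and 57 counts with Dox, against 18 and 19 without Dox (edgeR adjusted p = 0.0255). Hist1h2bb, a replication-dependent histone whose transcripts usually lack a poly(A) tail, had 3 and 2 counts with Dox, against 16 and 12 without Dox. None of the 4 was called without replicate 2 of the group without Dox (adjusted p = 0.296 to 0.409). At these counts the levels lie between 0.383 and 10.9 CPM.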
